A study of Mus musculus with 12 samples.

Results

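The subunits of the constitutive proteasome were read in intestinal stem cells (ISCs) of young and old mice. The members are the protein-coding genes of the mouse whose symbol begins with Psma, Psmb, Psmc, Psmd, Psme, Psmf or Psmg and goes on with a number, without the immunoproteasome genes Psmb8, Psmb9 and Psmb10. By this rule 47 of the 54232 genes in the count table were members. Of these, 16 encode the core particle, 17 the regulatory particle, 6 an activator or inhibitor and 7 an assembly chaperone. The last member, Psmc3ip, was taken in by its symbol alone, since it encodes a meiotic recombination factor and not a proteasome subunit. The regulatory particle subunits Sem1 and Adrm1 do not meet the rule and are given separately.

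The proteasome degrades proteins that have been tagged with ubiquitin. Its core particle is a barrel of alpha and beta rings with the proteolytic sites inside, and its regulatory particle caps the barrel, recognises ubiquitin, removes it and unfolds the substrate with a ring of ATPases. Subunit genes are known to be induced together by the transcription factor Nfe2l1 when proteasome activity falls, and high proteasome activity is a known feature of many stem cells.

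The libraries were 3′ RNA sequencing libraries of sorted ISCs from the small intestine of female mice, 1 mouse to a library, in 4 groups of 3. The SM6 groups came from wild-type C57/Bl6 mice aged 2 months (young) or 22 months (old). The Lgr5-GFP groups, at the same ages, came from mice that the labels call Lgr5-EGFP-IRES-CreERT and the study's methods Lgr5-EGFP-IRES-CreERT2. In these mice the promoter of the stem cell receptor Lgr5 drives a fluorescent reporter and a tamoxifen-dependent Cre recombinase. This reporter is known to be active in only a part of the crypts. Strain and isolation cannot be told apart, because each isolation used its own strain. The labels describe a sort by surface markers for all libraries, whereas the study describes a fluorescence sort for the reporter mice.

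Library totals ran from 970472 to 3815425 counts. Summed counts scaled to a common library size (CPM) over a list of 8 ISC markers lay between 7457 and 8667 in SM6 old and between 12130 and 15087 in SM6 young. A list of 7 goblet cell markers summed to 17307 to 18224 CPM in SM6 old and to 5705 to 9116 in SM6 young, with no goblet or ISC marker at 0 in either group. A list of 8 enterocyte markers summed to 2173 to 8671 CPM in SM6 old and to 1511 to 1630 in SM6 young, with no marker at 0. In Lgr5-GFP the ISC list summed to 9755 to 11086 CPM in old and 11848 to 13467 in young, and mitochondrial genes took 7.37 to 9.33% of the counts in old and 4.02 to 6.29% in young. A list of 8 Paneth cell markers summed to 22742 to 38882 CPM in Lgr5-GFP old and 56749 to 315414 in young, with no marker at 0, and the goblet list to 3153 to 5495 CPM in old and 5298 to 13740 in young. Defensins, which Paneth cells secrete, supplied 23.1% of all counts of SM6 old replicate 3 and 23.2% in Lgr5-GFP young replicate 1, against 1.26 to 12.4% in the other libraries and 2.27 to 3.86% in Lgr5-GFP old. A list of 12 genes of dividing cells summed to 1580 to 2482 CPM over all libraries, and lists of 6 immune and of 6 stromal and endothelial markers summed to at most 27.7 and 8.14 CPM in any library, with Cd79a of B cells and Pdgfra of stromal cells at 0 counts throughout. The part of these cell markers in the values below was not tested, and in bulk samples fewer cells of a type and less RNA per cell cannot be told apart.

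Most members could be read cleanly from the 3′ end of their transcripts, and 45 of the 47 passed the filter on low values (more than 5 counts and at least 1 CPM in 1 library). Psma8, the alpha subunit of the testis proteasome, had 0 counts in all libraries, which allows a level of up to 0.945 to 2.89 CPM depending on the library. Psmb11, the catalytic subunit of the thymus proteasome, had 1 count in all, in Lgr5-GFP young replicate 3. Psmb7, the trypsin-like catalytic subunit, passed the filter with only 40 counts over all libraries. The last 300 transcript bases of Psmb7 lie under exons of Nek6 on the opposite strand, a gene with 1628 counts, and the part of this overlap in the low count of Psmb7 was not tested. In all, 35 of the 47 members had neither a near-identical copy in another transcript nor a foreign exon in that window, and the other 12 are uncertain to that extent. Among these, Psmb3 has 3 copies, of which the highest had 274 counts against 6963 for Psmb3, and Psmd1 shares 228 bases of its window with Gm21972 on the same strand, a gene at 0 counts. The window of Psmc3ip lies wholly under Mlx, which had 512 counts.

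Psme2 on chromosome 14 and Psme2b on chromosome 11, which encode the beta subunit of the PA28 activator, are the closest pair. Their coding sequences of 717 bases differ at 5 positions (99.3% identity), and the longest identical run is 311 bases. Bases 454 to 543 of the coding sequence are shown because this stretch holds 3 of the differences, which are in capitals.
Psme2: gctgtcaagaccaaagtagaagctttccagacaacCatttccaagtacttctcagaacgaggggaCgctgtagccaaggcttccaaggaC
Psme2b: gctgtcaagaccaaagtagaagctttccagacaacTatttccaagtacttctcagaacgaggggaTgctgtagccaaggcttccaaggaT
The counts of Psme2b were 0.649 to 0.839 of those of Psme2 in every library, and how reads were split between the 2 genes is uncertain.

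No member passed the test for age in either isolation. In the comparison of SM6 old with SM6 young, 0 of 45 members passed edgeR's quasi-likelihood test at an adjusted p under 0.05, where 2.42% of the 13368 genes tested did. Unadjusted p-values were under 0.05 for 5 members, where 13.1% of all genes reached this. DESeq2 and limma's voom each called 1 member, Psmb3, where they called 393 and 461 of the 13368 genes. The likelihood ratio test of edgeR called 0 members, where it called 527 of all genes. In the Lgr5-GFP isolation 0 of 45 members passed, where 0.471% of all genes did, and 0 members had an unadjusted p under 0.05, where 9.79% of all genes did. With the age effect averaged over both isolations, 0 members passed, where 2.66% of all genes did, and 2 had an unadjusted p under 0.05, where 12.8% did. The test of whether the age effect differed between the isolations called 0 members, where 0.658% of all genes were called, and 4 had an unadjusted p under 0.05, where 9.43% did. DESeq2, voom and the likelihood ratio test also called 0 members in these 3 comparisons. They called 85, 73 and 173 of all genes in Lgr5-GFP. For the average they called 401, 463 and 501, and for the difference 94, 67 and 158.

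**Figure D1:**
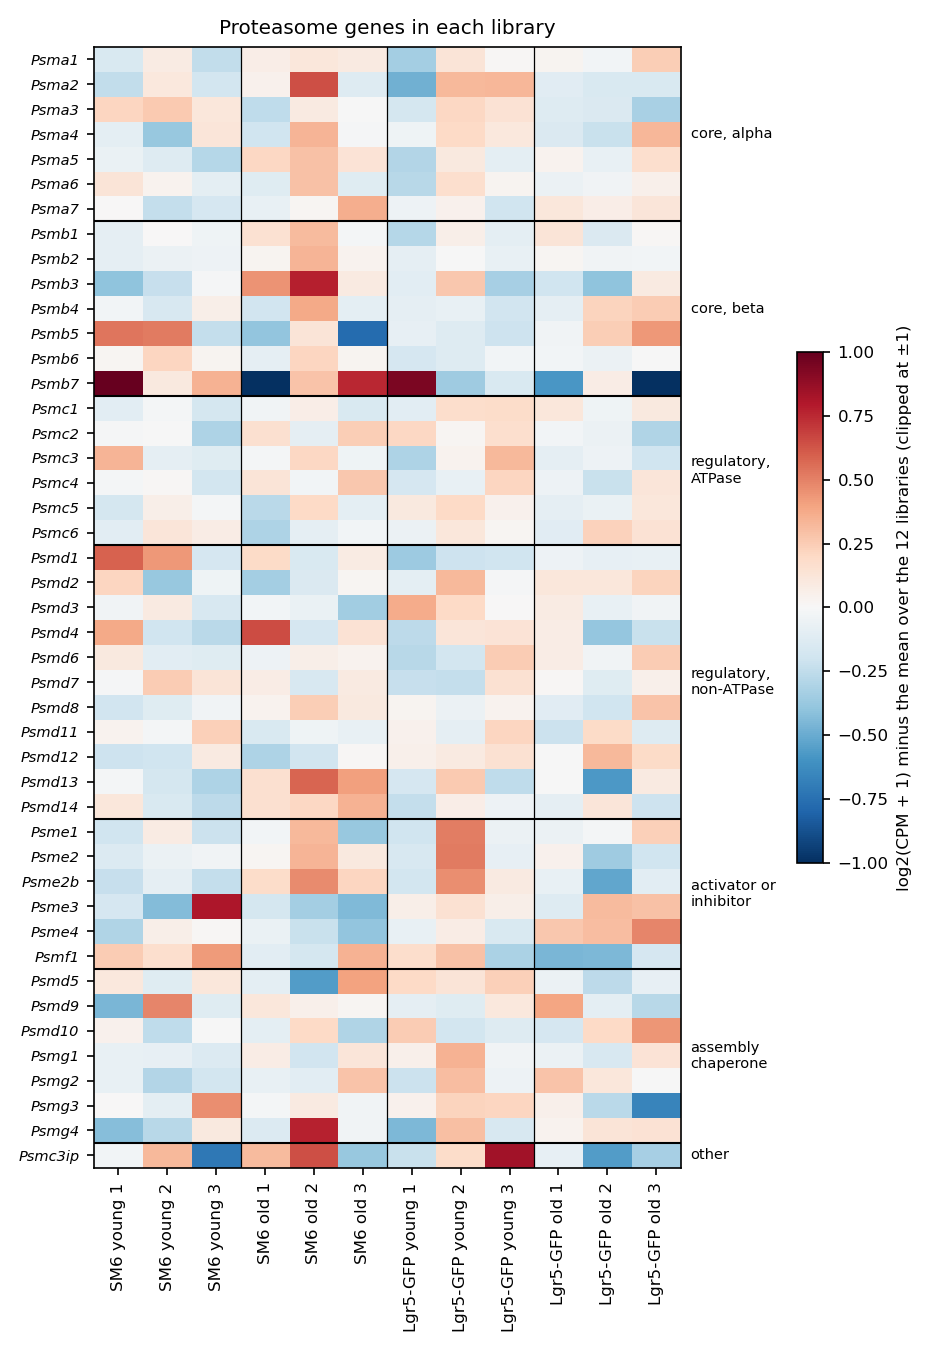
Each row is a tested proteasome gene and each column a library, and the colour gives log2(CPM + 1) minus the mean of that gene over the 12 libraries, clipped at 1 in either direction. Core genes are mostly red in SM6 old replicate 2, which held the highest value of 9 of the 14 tested core genes and of 2 of the 17 regulatory particle genes.

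The size of change that the data leave room for was small for most members. The 95% interval of the age effect lay wholly within a 2-fold change in either direction for 40 of 45 members (88.9%) in SM6 and 43 of 45 (95.6%) in Lgr5-GFP, where this held for 44.0% and 47.3% of all genes tested. For the age effect averaged over the isolations it held for 44 of 45 members, where 61.4% of all genes met it, and the exception was Psmb7. In SM6 the exceptions were Psmb3, Psmb5, Psmb7, Psme3 and Psmc3ip. All 17 regulatory particle genes were within these bounds in both isolations. The difference between the isolations was known less well, with intervals within 2-fold for 33 of 45 members and 26.5% of all genes. These shares of all genes are not matched for level, and the width of an interval depends on the counts. The members had a median of 7.15 log2 CPM and all genes tested 4.17. Their median SEs for age in SM6 were 0.18 and 0.34.

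**Figure D2:**
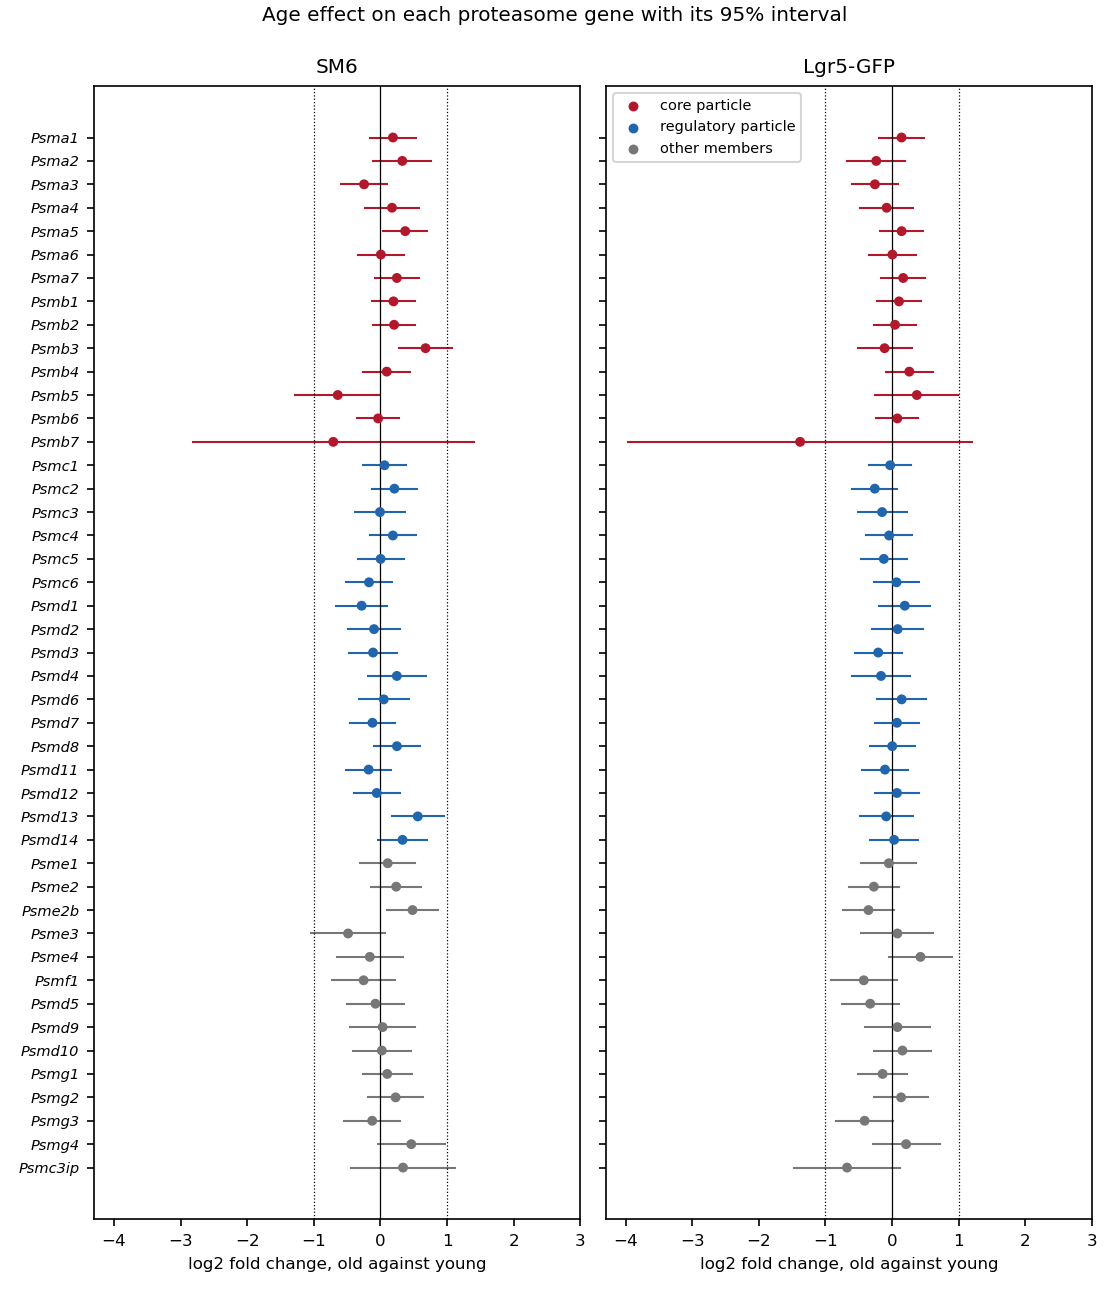
Points give the log2 fold change of old against young for each tested member in the SM6 (left) and Lgr5-GFP (right) isolation, lines give the 95% interval from edgeR, and dotted lines mark a 2-fold change. Psmb3 and Psmd13 stand farthest to the right in SM6 at 0.68 and 0.56, and neither does so in Lgr5-GFP, where they are at -0.11 and -0.089.

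The alpha ring, which gates the entrance of the core, held 7 tested genes. In SM6 their log2 fold changes lay between -0.25 and 0.37 with 6 of 7 above 0, as were 49.1% of all genes, and in Lgr5-GFP between -0.26 and 0.17 with 4 of 7 above 0, as were 46.3% of all genes. Psma5 had the largest of them in SM6, with 206, 197 and 177 CPM in the young libraries and 249, 265 and 237 CPM in the old. The old libraries were all above the young ones. This was 1.29-fold with an interval of 1.03 to 1.62 (log2 0.37 ± 0.16 SE), and edgeR gave an adjusted p of 0.295. Psma3 was the only alpha gene whose fold change was below 0 in both isolations by more than 0.2, at -0.25 (adjusted p = 0.595) and -0.26 (adjusted p = 0.665) by edgeR. In SM6 the old libraries of Psma3, at 112, 143 and 134 CPM, were all below the young ones, at 156, 161 and 145 CPM. Psma7 supplied 37.0 to 49.0% of all core counts, a share of counts and not a level per length. Its log2 fold changes were 0.25 ± 0.16 SE in SM6 and 0.17 ± 0.16 SE in Lgr5-GFP.

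Of the beta ring, Psmb3 had the largest age difference in SM6 of any member but the barely counted Psmb7. Psmb3, a structural beta subunit without a proteolytic site, was at 274, 308 and 358 CPM in SM6 young and at 494, 622 and 385 CPM in SM6 old. All old libraries were above all young ones in this isolation. It stood at 336, 435 and 286 CPM in Lgr5-GFP young and 315, 274 and 386 CPM in Lgr5-GFP old, where the groups overlapped. The SM6 difference was 1.60-fold with an interval of 1.21 to 2.12 (log2 0.68 ± 0.20 SE), with an adjusted p of 0.070 by edgeR. By DESeq2 the adjusted p was 0.019 and by voom 0.014. Without SM6 old replicate 3, one of the libraries rich in defensin counts, edgeR gave 0.84 with an adjusted p of 0.014. Without SM6 old replicate 2 the log2 fold change was 0.49 with an adjusted p of 0.359. The summed ISC, goblet cell and enterocyte lists did not overlap between the ages in the same comparison, as given above. The Lgr5-GFP effect minus the SM6 effect was -0.79 ± 0.28 SE on the log2 scale, with an adjusted p of 0.318 by edgeR. Libraries did not overlap between ages for 10 of the 45 members in SM6, 8 of them higher in old, where 17.5% of all genes did not overlap and 7.74% were higher. In Lgr5-GFP this held for 6 members, 4 of them higher, where 14.6% of all genes did not overlap and 6.61% were higher.

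Of the catalytic genes, Psmb5 varied far more between libraries than Psmb6, which had many more counts. The SD of log2 CPM between replicates was 0.33 for Psmb5, where the median of genes of like level was 0.36. For Psmb6 it was 0.10, where that median was 0.18. Psmb5, the chymotrypsin-like subunit, was at 29.1, 28.8 and 16.6 CPM in SM6 young and 14.8, 21.7 and 11.2 CPM in SM6 old. The groups overlapped, since the third young library was below the second old one. In Lgr5-GFP it was at 18.6, 18.0 and 17.0 CPM in young and at 19.3, 23.6 and 27.0 CPM in old, with all old libraries above all young ones. Psmb5 thus had a log2 fold change of -0.64 ± 0.31 SE in SM6 (adjusted p = 0.373 by edgeR) and 0.37 ± 0.30 SE in Lgr5-GFP (adjusted p = 0.761 by edgeR). The difference of these effects was 1.01 ± 0.43 SE with an adjusted p of 0.459 by edgeR. Only 14 to 59 counts a library stood behind these levels. Psmb5 is also among the members with near-identical copies at the 3′ end, Psmb5-ps and Gm3375, with a longest match of 227 bases. The higher of these copies had 14 counts against 393 for Psmb5, and the part of the copies in its low count was not tested. Psmb6, the caspase-like subunit, was at 425, 487 and 426 CPM in SM6 young and 394, 487 and 427 CPM in SM6 old. Its Lgr5-GFP libraries held 372, 384 and 411 CPM at 2 months and 411, 403 and 419 CPM at 22 months. Its old-to-young fold was 0.977 in SM6 with an interval of 0.786 to 1.21 and 1.06 in Lgr5-GFP with an interval of 0.849 to 1.31. Psmb7 had log2 fold changes of -0.71 ± 0.99 SE and -1.38 ± 1.25 SE, which rest on 0 to 12 counts a library.

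Promoters of Psmb3, Psmb5 and Psmb6 are shown because the first held the largest core difference in SM6 apart from Psmb7 and the other two are catalytic genes with a match to the antioxidant response element, the kind of site that Nfe2l1 and Nfe2l2 bind. Each is the RefSeq window on GRCm38.p6 from 250 bases before to 50 after the gene start, 5′ to 3′ on the gene's strand. Psmb3 is at chr11:97703184-97703483 (plus strand), Psmb5 at chr14:54617946-54618245 (minus strand) and Psmb6 at chr11:70525107-70525406 (plus strand). Capitals mark CCAAT in Psmb3 and the core of the antioxidant response element, TGACNNNGC, in Psmb5 and Psmb6.
Psmb3: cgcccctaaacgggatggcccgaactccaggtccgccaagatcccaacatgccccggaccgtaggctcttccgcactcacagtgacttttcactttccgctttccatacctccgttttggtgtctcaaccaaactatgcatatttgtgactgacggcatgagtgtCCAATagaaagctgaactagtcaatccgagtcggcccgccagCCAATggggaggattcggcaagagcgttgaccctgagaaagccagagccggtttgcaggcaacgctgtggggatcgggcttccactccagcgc
Psmb5: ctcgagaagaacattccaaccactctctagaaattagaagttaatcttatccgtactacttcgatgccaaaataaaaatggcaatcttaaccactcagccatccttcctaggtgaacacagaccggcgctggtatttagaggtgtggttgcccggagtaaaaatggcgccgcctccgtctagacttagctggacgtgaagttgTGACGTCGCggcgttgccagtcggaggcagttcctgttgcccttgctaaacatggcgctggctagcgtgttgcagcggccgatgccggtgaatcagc
Psmb6: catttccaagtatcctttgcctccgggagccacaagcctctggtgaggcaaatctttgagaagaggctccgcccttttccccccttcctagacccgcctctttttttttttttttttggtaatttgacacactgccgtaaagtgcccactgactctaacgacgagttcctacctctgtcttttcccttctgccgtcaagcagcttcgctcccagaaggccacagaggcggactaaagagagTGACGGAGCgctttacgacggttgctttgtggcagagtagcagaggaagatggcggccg
Both motifs were searched on both strands of the 39 member promoters with an entry, which left out Psma8, Psmb1, Psmb2, Psmb7, Psmc3, Psmd3, Psmd7 and Psmg2. The antioxidant response core was found in 6 of 39 (15.4%) and in 12.5% of the 27025 promoters of all genes. Its first base was 47 bases before the start in Psmb5 and 9 before it in Psmb6, and the others were Psmc6, Psmd12, Psmd9 and Psme4. CCAAT was found in 14 of 39 (35.9%) and in 37.9% of all promoters, with 7 of 12 for the core and 4 of 14 for the regulatory particle. Matches that overlap were each counted, and a match is a description of the window only.

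**Figure D3:**
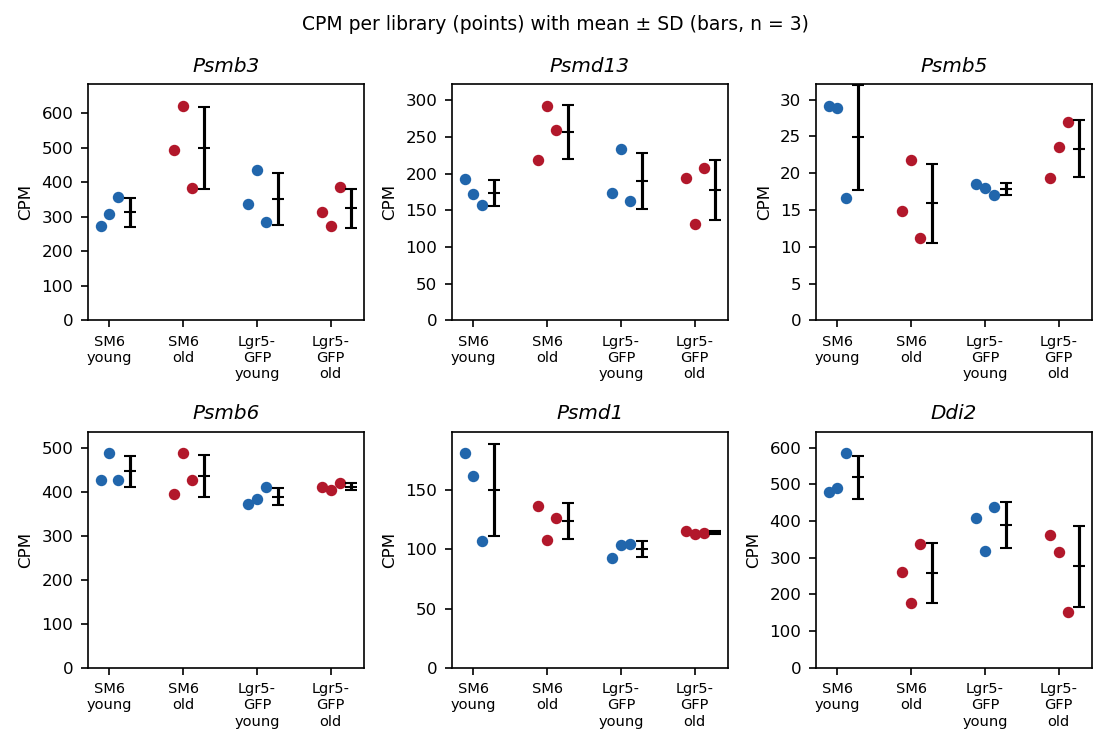
CPM in each library (points, young in blue and old in red) and the mean ± SD of each group (bars, n = 3) for Psmb3, Psmd13, Psmb5, Psmb6, Psmd1 and Ddi2, with vertical axes that start at 0. Psmb6 keeps to 372 to 487 CPM in all groups, while Psmb3 ranges from 274 to 622 CPM and Ddi2 from 151 to 585 CPM.

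The ATPases of the regulatory particle, Psmc1 to Psmc6, form the ring that unfolds substrates, and 0 of 6 passed the test in either isolation, where 2.42% of all genes did in SM6 and 0.471% in Lgr5-GFP. Their age effects lay between -0.17 and 0.21 on the log2 scale in SM6 and between -0.26 and 0.066 in Lgr5-GFP. Psmc1 was at 243, 259 and 232 CPM in SM6 young and 256, 274 and 236 CPM in SM6 old. These groups overlapped. Its log2 fold changes were 0.062 in SM6 and -0.029 in Lgr5-GFP, and both changed sign with scaling by library totals alone. Psmc2 had the lowest value of the regulatory particle in Lgr5-GFP at -0.26 ± 0.17 SE (adjusted p = 0.657 by edgeR). Its young libraries there, at 168, 147 and 163 CPM, were all above the old ones, at 143, 140 and 118 CPM.

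Among the 11 other regulatory particle genes, Psmd13, a lid subunit, differed most in SM6. It was at 192, 172 and 158 CPM in SM6 young and at 218, 293 and 260 CPM in SM6 old. Every old library was higher than every young one. This was 1.48-fold with an interval of 1.12 to 1.94 (log2 0.56 ± 0.19 SE), with an adjusted p of 0.146 by edgeR. In Lgr5-GFP, Psmd13 was at 174, 234 and 164 CPM in young and 195, 131 and 208 CPM in old, and these groups overlapped. Psmd1, the large scaffold subunit of the base, had the lowest value in SM6 at -0.28 ± 0.18 SE and the highest in Lgr5-GFP at 0.19 ± 0.19 SE, with adjusted p-values of 0.574 and 0.806 by edgeR. It was at 181, 162 and 107 CPM in SM6 young and 137, 108 and 127 CPM in SM6 old, so that these libraries overlapped. In Lgr5-GFP, Psmd1 was at 92.9, 104 and 104 CPM in young and 116, 113 and 114 CPM in old, without overlap.

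The ubiquitin-handling subunits Psmd4, Psmd2 and Psmd14 are given singly, with the regulatory particle genes Psmd11 and Psmd3. Psmd4, a ubiquitin receptor, had log2 fold changes of 0.25 ± 0.21 SE in SM6 and -0.17 ± 0.21 SE in Lgr5-GFP, the latter above 0 with library totals alone. Leaving out each library gave 0.012 (without SM6 old replicate 1) to 0.48 (without SM6 young replicate 1) for Psmd4 in SM6. In Lgr5-GFP it gave -0.31 (without Lgr5-GFP old replicate 1) to -0.063 (without Lgr5-GFP old replicate 2). Psmd2, the scaffold that receives ubiquitin-like shuttle proteins, had -0.096 and 0.083. Psmd14, the deubiquitinase of the lid, had 0.33 ± 0.17 SE in SM6 (adjusted p = 0.440 by edgeR) and 0.030 in Lgr5-GFP. Psmd14 did not overlap between ages in SM6, at 92.8, 77.0 and 71.5 CPM in young and 95.9, 99.1 and 109 CPM in old. Psmd11, a lid subunit known to limit assembly of the full proteasome, had -0.18 and -0.11, the latter above 0 with library totals alone. Psmd3 had the lowest value of the 17 regulatory particle genes for the age effect averaged over the isolations at -0.16 on the log2 scale.

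Core and regulatory particle were then set side by side. In SM6 the median log2 fold change was 0.18 over the 14 tested core genes and 0.0032 over the 17 regulatory particle genes, and it was -0.0070 over all genes tested. Of the core genes 10 of 14 were above 0, of the regulatory particle genes 9 of 17, and of all genes 49.1%. In Lgr5-GFP the medians were 0.061 and -0.029, beside -0.034 over all genes. With scaling by library totals alone, which shifted the median of all genes to -0.16 in SM6 and 0.16 in Lgr5-GFP, the core and regulatory particle medians were 0.029 and -0.15 in SM6 and 0.25 and 0.15 in Lgr5-GFP. Leaving out each library gave regulatory particle medians of -0.038 (without SM6 old replicate 2) to 0.059 (without SM6 young replicate 1) in SM6. In Lgr5-GFP they were -0.11 (without Lgr5-GFP young replicate 1) to 0.024 (without Lgr5-GFP young replicate 3), and core medians were 0.016 (without Lgr5-GFP young replicate 1) to 0.084 (without Lgr5-GFP young replicate 2). The core median in SM6 rested on 1 library, since it was 0.034 without SM6 old replicate 2. That library held the highest value of 9 of 14 core genes but of 2 of 17 regulatory particle genes. At the other end, Lgr5-GFP young replicate 1 held the lowest value of 6 of 14 core genes.

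The ratio of summed core to summed regulatory particle counts is free of any scaling of the libraries. It was 1.72, 1.81 and 1.88 in SM6 young and 1.86, 2.14 and 2.05 in SM6 old. It was 1.86, 1.94 and 1.62 in Lgr5-GFP young and 1.98, 1.95 and 2.01 in Lgr5-GFP old. The old groups were higher on average in both isolations, at 2.01 ± 0.14 against 1.80 ± 0.08 in SM6 and 1.98 ± 0.03 against 1.80 ± 0.17 in Lgr5-GFP (mean ± SD, n = 3), and the libraries overlapped in SM6 but not in Lgr5-GFP. The Paneth cell and ISC lists and the mitochondrial share did not overlap between the Lgr5-GFP ages either, as given above. The mean log2 CPM over core genes minus that over regulatory particle genes, which weights each tested gene equally, overlapped between the ages in both isolations. It was 0.26 ± 0.019 in SM6 young and 0.27 ± 0.20 in SM6 old, and in Lgr5-GFP it was 0.18 ± 0.077 at 2 months and 0.21 ± 0.027 at 22 months (mean ± SD, n = 3). Without Psma7 the ratio was 0.961 to 1.35 over all libraries, with group means of 1.06 (SM6 young), 1.17 (SM6 old), 1.03 (Lgr5-GFP young) and 1.09 (Lgr5-GFP old). The age groups then overlapped in both isolations. In all, core genes took 0.410 to 0.640% of a library's counts and regulatory particle genes 0.221 to 0.328%.

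**Figure D4:**
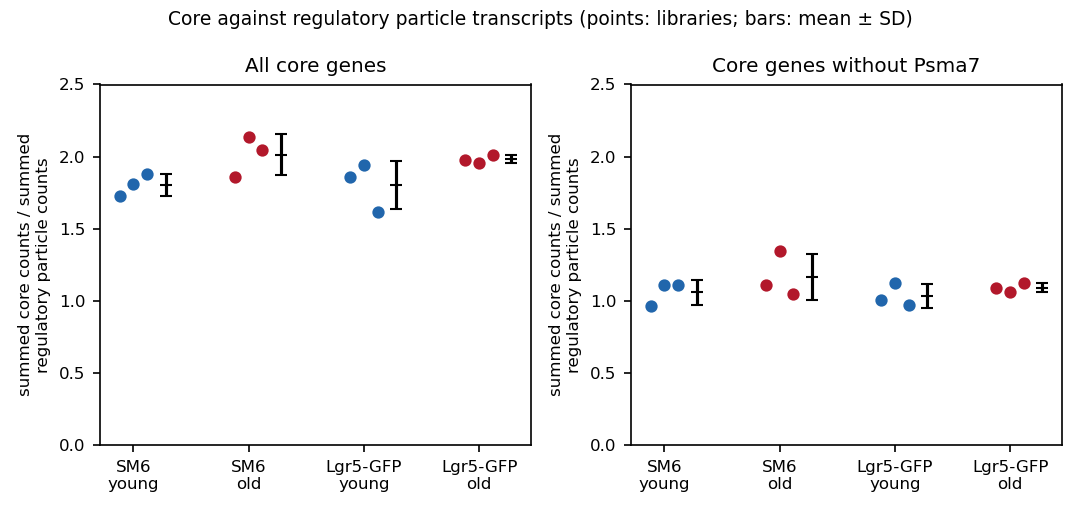
The ratio of summed core counts to summed regulatory particle counts in each library (points, young in blue and old in red), with the mean ± SD of each group (bars, n = 3), over all core genes (left) and without Psma7 (right). The ratio lies between 1.62 and 2.14 with Psma7 and between 0.961 and 1.35 without it.

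The activators open the gate of the core. Psme1, the alpha subunit of PA28, had log2 fold changes of 0.11 ± 0.20 SE in SM6 and -0.049 in Lgr5-GFP, and both changed sign with library totals alone. Psme2 had 0.24 ± 0.18 SE and -0.27 ± 0.19 SE, and its near-copy Psme2b 0.48 ± 0.18 SE (adjusted p = 0.214) and -0.36 ± 0.18 SE (adjusted p = 0.549) by edgeR. For Psme2b the Lgr5-GFP effect minus the SM6 effect was -0.84 ± 0.26 SE, and its adjusted p of 0.216 by edgeR was the smallest of any member in that comparison. Psme3, a nuclear activator, was at 37.0, 30.5 and 73.7 CPM in SM6 young and 36.6, 32.6 and 30.4 CPM in SM6 old, where 1 young library stood far above the rest. Psme4, the activator of the proteasome in chromatin and spermatids, was at 27.1, 30.2 and 25.7 CPM in Lgr5-GFP young and 34.7, 35.8 and 40.5 CPM in Lgr5-GFP old. These groups did not overlap, at 1.34-fold (log2 0.43 ± 0.23 SE) with an adjusted p of 0.573 by edgeR. Psmf1, an inhibitor of the core in vitro, had -0.25 ± 0.23 SE in SM6 and -0.43 ± 0.25 SE in Lgr5-GFP.

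The assembly chaperones, which build the core ring by ring or hold the ATPases until they dock, gave 0 of 7 called in each isolation, where 2.42% of all genes were called in SM6 and 0.471% in Lgr5-GFP. Their log2 fold changes lay between -0.12 and 0.46 in SM6 and between -0.41 and 0.21 in Lgr5-GFP. Psmg1, which scaffolds the alpha ring, had 0.10 and -0.14, and both changed sign with library totals alone. Of the chaperones of the ATPase ring, Psmd5 had -0.075 in SM6 and -0.33 in Lgr5-GFP, Psmd9 had 0.033 and 0.080, and Psmd10 had 0.021 and 0.16. None of these passed the test, and their directions changed under other settings for Psmd5, Psmd9 and Psmd10 in SM6 and for Psmd9 in Lgr5-GFP.

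Replicates of one group were close for most members. The SD of log2 CPM between replicates, pooled over the 4 groups, had a median of 0.17 over the tested core genes, 0.15 over the regulatory particle genes and 0.40 over all genes tested. Over the 12 core genes without the low Psmb5 and Psmb7 it was 0.16, and over the 1981 genes of all kinds in the range of mean level of these and the regulatory particle genes it was 0.20. It was below the median of all genes of like level (bins of 1 log2 unit) for 10 of 14 core and 14 of 17 regulatory particle genes. Psmb2, a structural beta subunit, had the smallest SD of the members at 0.09, followed by Psmb6 at 0.10 and Psmc1 at 0.11. Psmb2 was at 283, 290 and 292 CPM in SM6 young and at 308, 381 and 308 CPM in SM6 old. All old libraries of Psmb2 were above the young ones, and its log2 fold change was 0.21 ± 0.15 SE with an adjusted p of 0.635 by edgeR.

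**Figure D5:**
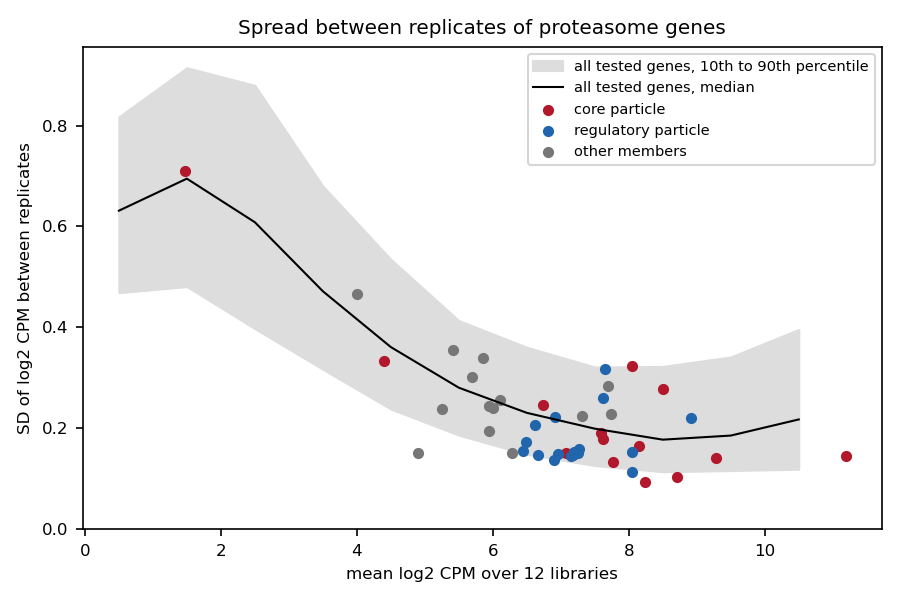
For each tested member, the SD of log2 CPM between replicates is plotted against its mean log2 CPM over the 12 libraries (core in red, regulatory particle in blue, others in grey). The black line and grey band give the median and the 10th to 90th percentile of all genes tested in bins of 1 log2 unit, and 29 of the 45 members lie below the median of their bin.

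The isolations were also compared at each age, where strain changes as well. At 2 months 0 of 45 members differed by edgeR, where 0.0898% of all genes did, and at 22 months 0 of 45 differed, where 0.718% did. Unadjusted p-values were under 0.05 for 1 member at 2 months, where 7.47% of all genes reached this, and for 4 at 22 months, where 9.4% did. DESeq2, voom and the likelihood ratio test called 0 members at both ages. Of all genes they called 31, 22 and 41 at 2 months and 120, 86 and 203 at 22 months. Psmd1 had the smallest p at 2 months. Its Lgr5-GFP young libraries, at 92.9, 104 and 104 CPM, were all below its SM6 young libraries given above, with a log2 difference of -0.59 ± 0.18 SE and an adjusted p of 0.354 by edgeR. The mitochondrial share did not overlap between these groups, at 4.02 to 6.29% against 6.39 to 7.01%. Nor did a list of 7 enteroendocrine markers, at 106 to 204 CPM in Lgr5-GFP against 329 to 422 in SM6. In each of these groups 1 of its markers was at 0 counts. At 22 months the members with unadjusted p-values under 0.05 were Psmb3 at -0.62, Psme2b at -0.52, Psmd13 at -0.53 and Psme4 at 0.59 (log2, Lgr5-GFP minus SM6), with adjusted p-values of 0.210, 0.322, 0.331 and 0.421 by edgeR. Between the same old libraries the goblet list did not overlap, at 17307 to 18224 CPM in SM6 and 3153 to 5495 in Lgr5-GFP, nor did the Paneth cell list, at 53861 to 327989 against 22742 to 38882, the ISC list or the mitochondrial share, at 5.77 to 6.85% against 7.37 to 9.33%. The enteroendocrine list did not overlap between these old libraries either, at 232 to 621 CPM in SM6 and 53.0 to 134 in Lgr5-GFP. The isolation comparisons use the same libraries as the age comparisons.

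Around the proteasome, 31 of 32 listed genes could be tested. The list covers ubiquitin, its activation and shuttling, proteasome assembly, transcriptional control, the 3 immunoproteasome subunits, Sem1 and Adrm1. In SM6 1 of 31 passed edgeR's test, and it was lower in old, where 1.77% of all genes passed as lower. In Lgr5-GFP 0 of 31 passed, where 0.471% of all genes did, and 3 had an unadjusted p under 0.05, where 9.79% did. In the test of the difference 0 of 31 passed, where 0.658% of all genes did, and 4 had an unadjusted p under 0.05, where 9.43% did. Of these 4, 2 were immunoproteasome subunits. The gene that passed was Ddi2, the protease that cuts and so activates Nfe2l1. Ddi2 was at 480, 491 and 585 CPM in SM6 young and at 262, 175 and 338 CPM in SM6 old. Every old library was lower. It fell to 0.498 of the young level with an interval of 0.350 to 0.707 (log2 -1.01 ± 0.25 SE), with an adjusted p of 0.027 by edgeR. In Lgr5-GFP it was at 408, 319 and 438 CPM in young and 363, 315 and 151 CPM in old, where the groups overlapped. There the log2 fold change was -0.49 ± 0.25 SE with an adjusted p of 0.533 by edgeR, and the difference between the isolations was 0.52 ± 0.35 SE with an adjusted p of 0.693. The exons of Ddi2 share 1749 bases with Rsc1a1 on the same strand, a gene at 0 counts. Averaged over the isolations, the log2 fold change of Ddi2 was -0.75 ± 0.17 SE with an adjusted p of 0.017 by edgeR.

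The call of Ddi2 in SM6 was lost without SM6 young replicate 2 (adjusted p = 0.077), SM6 young replicate 3 (adjusted p = 0.110), SM6 old replicate 1 (adjusted p = 0.115) or SM6 old replicate 2 (adjusted p = 0.185) by edgeR, with log2 fold changes of -0.79 to -1.04. It was also lost with the defensin share of each library as a covariate, at -0.996 with an adjusted p of 0.057 by edgeR. The average over isolations was lost without SM6 young replicate 3 (adjusted p = 0.052), SM6 old replicate 1 (adjusted p = 0.051), SM6 old replicate 2 (adjusted p = 0.063) or Lgr5-GFP young replicate 3 (adjusted p = 0.053) by edgeR, with log2 fold changes of -0.64 to -0.74. Nfe2l1 itself had log2 fold changes of -0.16 ± 0.24 SE in SM6 and -0.069 ± 0.25 SE in Lgr5-GFP. Of the regulatory particle subunits outside the rule, Sem1 had 0.26 in SM6 and 0.15 in Lgr5-GFP, and Adrm1, a ubiquitin receptor, -0.47 and -0.31. The interferon-inducible catalytic subunits Psmb8 and Psmb9, which replace Psmb5 and Psmb6, had 0.74 (adjusted p = 0.200) and 0.91 (adjusted p = 0.111) in SM6 by edgeR, and the third such subunit, Psmb10, had 0.073 (adjusted p = 0.935). The effect in Lgr5-GFP minus that in SM6 was -1.13 (adjusted p = 0.307) and -1.02 (adjusted p = 0.421) for Psmb8 and Psmb9 and -0.51 (adjusted p = 0.576) for Psmb10 by edgeR.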

How the data were processed

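The data were deposited counts of 3′ RNA sequencing reads per gene in 12 libraries, 1 mouse each. Per the labels and the study's methods, the authors used STAR 2.4.2a for alignment to GRCm38 and counted reads over GENCODE exons with featureCounts, with no scaling. Whether reads with the same molecular identifier were collapsed is not given in the sources used here. The intervals of fold changes come from the edgeR fit and include the spread between replicates. Symbols and positions came from GENCODE vM21, which is later than the release behind the counts, and promoters from RefSeq. Genes with more than 5 counts and at least 1 CPM in at least 1 library were kept. All 12 libraries, in 4 groups, were fitted together with edgeR 4.0.16 (TMM, quasi-likelihood test, Benjamini-Hochberg adjustment over 13368 genes, threshold 0.05), in R 4.3.3, and CPM are scaled by TMM. Alternatives were DESeq2 1.42.0, voom of limma 3.58.1, the likelihood ratio test, other scalings and filters, the defensin share as a covariate, a replicate block and each library left out in turn. Leaving out together both libraries richest in defensin counts was chosen after seeing the data. The procedure was tested on simulated data. The members and lists were chosen with earlier results of these data known. Named are the members called in any comparison, fixed catalytic, regulatory, activator and chaperone genes, the highest and lowest core and regulatory particle genes by age effect, members that failed the filter, and listed pathway genes that were called. Psma5, Psma3, Psma7, Psmb2 and Psme2b, and the other genes beyond this rule, were chosen after their values were seen.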

Additional observations from a re-analysis of the deposited data

How the results depend on the processing

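The count of 0 members called in SM6 became 1, Psmb3 in each case, with no filter beyond 1 count, without SM6 old replicate 3, with a covariate for the defensin share, without the 2 libraries with the highest defensin share, by DESeq2 and by voom, and leaving out each library gave 0 to 1. No filter beyond 1 count called 603 of 23621 genes in all, and leaving out SM6 old replicate 3 called 404 of 13320. The covariate called 282 of 13368, and leaving out the 2 libraries with the highest defensin share called 424 of 12876. DESeq2 called 393 and voom 461 of 13368. The other 5 comparisons stayed at 0 members under all settings run. Scaling by library totals alone put the median of all genes at -0.16 in SM6 and 0.16 in Lgr5-GFP. Core and regulatory particle medians were then 0.029 and -0.15 for age in SM6, 0.25 and 0.15 for age in Lgr5-GFP, 0.25 and 0.23 for their difference (-0.087 and -0.098 in the reported fit), -0.15 and -0.063 for the isolations at 2 months (-0.020 and 0.059), and 0.089 and 0.19 at 22 months (-0.12 and -0.025). Without the 2 libraries with the highest defensin share the regulatory particle median at 2 months was 0.15. Leaving out each library gave core medians of 0.034 to 0.22 in SM6, with the lowest without SM6 old replicate 2. The signs of small age effects also turned. Under library totals alone the log2 fold changes in SM6 were -0.081 for Psmc1, -0.020 for Psme1, -0.055 for Psmg1, -0.12 for Psmd9 and -0.12 for Psmd10, and in Lgr5-GFP they were 0.15 for Psmc1, 0.0098 for Psmd4, 0.081 for Psmd11, 0.13 for Psme1 and 0.050 for Psmg1. With the defensin share as a covariate Psmd10 was at -0.0098 in SM6, and Psme3 at -0.30 and Psmd9 at -0.13 in Lgr5-GFP, where voom gave -0.015 for Psme3. Psmd14 was at -0.047 in Lgr5-GFP without the 2 libraries with the highest defensin share. Leaving out each library gave, in SM6, -0.12 to 0.053 for Psmb6, -0.24 to 0.059 for Psmd2, -0.087 to 0.28 for Psme1, -0.35 to 0.14 for Psmd5, -0.17 to 0.35 for Psmd9 and -0.13 to 0.14 for Psmd10. In Lgr5-GFP it gave -0.12 to 0.024 for Psmc1, -0.0031 to 0.21 for Psmd2, -0.063 to 0.098 for Psmd14, -0.19 to 0.19 for Psme1, -0.0018 to 0.22 for Psme3 and -0.16 to 0.21 for Psmd9. The cause of these changes was not tested. Replicate numbers did not pair the samples, since same-numbered libraries of the 2 ages correlated at -0.044 to 0.022 in their deviations, and the replicate block called 0 members in each comparison and changed no call among the members and Ddi2. Among the tested members Psmb7 had the fewest counts, with 40 over all libraries.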
